A study of Mus musculus with 8 samples.

Results

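The 60 genes described here make proteins of cell division: the kinetochore and its checkpoint, the mitotic kinases, the spindle, the contractile and central spindle machinery, the condensed chromosome, the cyclins with Cdk1, and the enzymes that have cyclins destroyed. They were chosen by name and function, and sorted into 8 role groups. All 60 were among the 16647 gene rows of the count table, and all 60 passed the filter on low counts. Their transcripts were counted in single Tri-PyMT cells, cultured mouse mammary tumour cells. All of the cells carry 3 transgenes, written MMTV-PyMT:Fsp1-cre:Rosa26mT/mG, and the labels give their tissue as a primary metastatic breast tumour. The MMTV promoter drives the polyoma middle T oncogene in mammary epithelium. The Fsp1 promoter, that of S100a4, drives the Cre recombinase, which switches the Rosa26mT/mG reporter from a red to a green membrane protein. Serum-fed cultures were sorted by fluorescence into an RFP+ and a GFP+ population and profiled by Drop-seq, which captures polyadenylated RNA of a cell on a barcoded bead. No drug or other treatment is given in the labels. The comparison is between the sorted populations, each with 2 libraries, and each library was sequenced in 2 lanes that the table pools. Whether the libraries stem from separate cultures is not stated, and the p-values therefore cover only library-to-library spread, which may be technical.

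A cell enters mitosis when cyclin B binds and activates the kinase Cdk1. Chromosomes then condense, the spindle forms, and kinetochores, the protein plates on centromeres, attach to microtubules, while a checkpoint built on Bub and Ttk proteins holds back Cdc20 until every chromosome is attached. Freed Cdc20 lets the anaphase-promoting complex (APC/C), with its ubiquitin-conjugating enzymes Ube2c and Ube2s, tag cyclin B and securin for destruction, and the cell divides. Many of these genes are transcribed late in the cell cycle, through promoters that carry a CHR element (letters TTTGAA) and CCAAT boxes.

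The table held 7400 cells, of which 7390 passed the cell filter (500 counts or more, less than 20% of them mitochondrially encoded). The libraries held 2550319 to 3081009 counts over 1597 to 1998 cells, with a median of 1166 to 1358 counts per cell. Levels are in CPM, a library's summed count divided by its total and brought to the same scale in every library. No kept cell shared its barcode with a cell of another library. Before the results, 1 fact bears on every direction: the reporter rows of the table went against the labels. The row named CUSTOM_GFP stood at 612 and 589.9 CPM in libraries labelled RFP+ and at 99.7 and 104 CPM in those labelled GFP+, and CUSTOM_RFP stood at 132 and 137 CPM against 2943 and 3053 CPM. S100a4, whose promoter drives Cre, stood at 648 and 676 CPM in libraries labelled RFP+ and at 1843 and 2114 CPM in those labelled GFP+. Directions below follow the labels. The 10 epithelial markers summed to 2321 and 2430 CPM in libraries labelled RFP+ against 1000.3 and 942 CPM, and the 8 mesenchymal markers to 3263 and 3156 CPM against 6226 and 6616 CPM. Of markers of other cells, 6 immune genes in the table summed to 0 to 1.62 CPM with Lyz2 at 0, 5 endothelial genes to 3.25 to 6.36 CPM with Cldn5 at 0, and 2 erythroid genes to at most 0.325 CPM with Alas2 at 0. The 6 fibroblast genes summed to 11.04 and 8.37 CPM against 26.9 and 27.8 CPM, with none at 0. The part of the epithelial, mesenchymal and fibroblast shift in the mitotic results was not tested.

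Promoter sequence is shown for 6 members, picked with their values known, because they include members called in either direction and the cyclin, kinase and destruction genes: Aspm and Mki67, which were higher in the libraries labelled GFP+, and Cdc20, Ube2c, Ccnb1 and Cdk1, which were lower. Each line runs 5′ to 3′ along the gene from 150 bases before to 30 bases after the RefSeq start (build GRCm38.p6). Capitals mark TTTGAA and CCAAT on either strand, so that TTCAAA and ATTGG are the same motifs read from the other strand.
Aspm: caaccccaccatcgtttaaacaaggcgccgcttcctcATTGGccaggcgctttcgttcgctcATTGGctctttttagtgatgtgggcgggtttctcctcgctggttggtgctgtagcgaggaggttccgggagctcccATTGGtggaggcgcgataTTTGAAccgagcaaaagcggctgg
Mki67: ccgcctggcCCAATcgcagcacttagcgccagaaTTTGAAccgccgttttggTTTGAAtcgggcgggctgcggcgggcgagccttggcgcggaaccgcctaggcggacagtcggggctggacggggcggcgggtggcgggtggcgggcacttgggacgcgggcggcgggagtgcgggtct
Cdc20: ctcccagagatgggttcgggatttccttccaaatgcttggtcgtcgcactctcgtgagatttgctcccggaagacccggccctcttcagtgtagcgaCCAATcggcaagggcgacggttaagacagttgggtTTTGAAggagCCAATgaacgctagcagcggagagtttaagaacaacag
Ube2c: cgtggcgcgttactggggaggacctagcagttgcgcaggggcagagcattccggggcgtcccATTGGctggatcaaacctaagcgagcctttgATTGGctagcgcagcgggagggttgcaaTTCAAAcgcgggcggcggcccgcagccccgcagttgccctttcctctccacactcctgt
Ccnb1: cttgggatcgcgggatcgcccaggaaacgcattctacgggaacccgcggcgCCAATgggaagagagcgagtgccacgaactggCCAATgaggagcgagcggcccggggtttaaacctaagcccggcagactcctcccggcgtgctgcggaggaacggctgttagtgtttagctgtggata
Cdk1: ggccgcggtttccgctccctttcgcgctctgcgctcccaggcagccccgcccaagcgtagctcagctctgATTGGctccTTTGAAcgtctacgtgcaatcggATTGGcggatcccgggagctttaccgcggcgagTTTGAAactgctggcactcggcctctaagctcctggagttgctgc

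The windows lie at chr1:139454623-139454802 on the plus strand, chr7:135716350-135716529 on the minus strand, chr4:118437314-118437493 on the minus strand, chr2:164769779-164769958 on the plus strand, chr13:100786457-100786636 on the minus strand and chr10:69352883-69353062 on the minus strand. TTTGAA occurred 1 time in the windows of Aspm, Cdc20 and Ube2c, 2 times in those of Mki67 and Cdk1, and not in that of Ccnb1, while CCAAT occurred in all 6. No base of these 6 windows belonged to both motifs. Over the full RefSeq window (250 bases before to 50 after the start), 51 of the 60 members had an entry. TTTGAA, on either strand, was in the promoters of 37 of those 51 genes (72.5%), against 14.8% of the 11255 genes of the count table with an entry and 20.2% of all 27025 genes of the promoter table. CCAAT was in 41 of 51 (80.4%), against 42.9% and 41.1%, and both motifs were in 64.7%, against 6.21% and 7.97%. TTTGAA within 50 bases of the start was found in 33 of 51 members (64.7%), against 3.92% and 5.72%. The motif was found in members of either direction: 9 of 14 members called higher, 7 of 10 called lower and 17 of 27 not called had TTTGAA that close to the start. These are matches of letters, not sites known to be bound.

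The 60 members together took a nearly equal share of the counts in both populations, while single members moved in both directions. Their summed level was 12288 and 11760 CPM in libraries labelled RFP+ and 12408 and 12361 CPM in those labelled GFP+, a ratio of 1.03 that is within the spread between libraries. With edgeR's quasi-likelihood test on library sums (Benjamini-Hochberg adjusted p under 0.05 over 7595 genes), 16 members rose, or 26.7%, where 15.7% of all tested genes were called higher. Another 12 of the 60 fell, where 14.9% of all tested genes were called lower, and 32 were not called. Either call was made for 30.5% of tested genes. Well-counted genes pass the test more often, and members are well counted: among genes with at least 50 CPM in either population, 16 of 54 members rose (29.6%, against 24.0% of all such genes) and 11 fell (20.4%, against 23.4%). Read against genes above the same floor of 50 CPM, these shares do not set the members apart. Above that floor the genes were not matched for counts. The 2 libraries of each population did not overlap in CPM for 27 members on the higher side (45.0%, against 34.3% of tested genes) and 19 on the lower side (31.7%, against 30.7%). The median log2 fold of the members, labelled GFP+ over labelled RFP+, was 0.07, against 0.00 for all tested genes. Under DESeq2's Wald test, which took 4.79% of all tested genes as higher and 4.87% as lower, 6 members were higher and 7 lower.

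**Figure D1:**
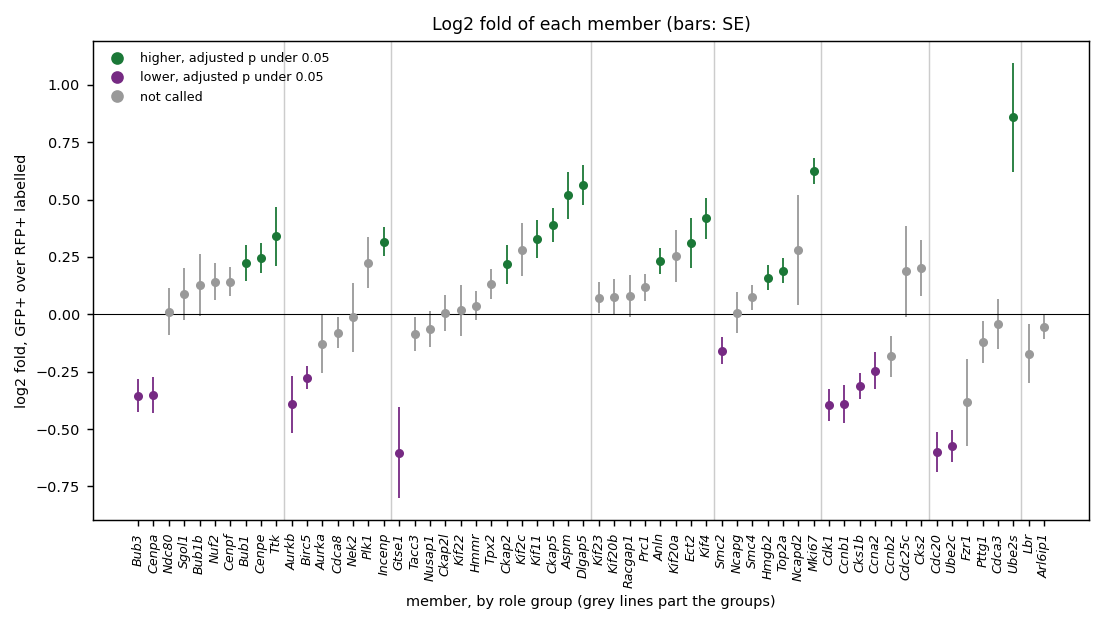
Log2 fold (labelled GFP+ over labelled RFP+, vertical axis) of all 60 members, ordered within 8 role groups along the horizontal axis; points are edgeR estimates, bars are SE, and colours give the call. Cyclins and Cdk1 hold 4 lower and 0 higher members, and the central spindle group holds 3 higher and 0 lower.

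The called members of each role group were counted by direction, beside 15.7% higher and 14.9% lower among all tested genes. The groups are small, and the difference between them was not tested. Central spindle and cytokinesis genes had 3 higher and 0 lower of 8 (median log2 fold 0.18), spindle genes 5 higher and 1 lower of 13 (0.13), condensation genes 3 higher and 1 lower of 7 (0.16), and kinetochore genes 3 higher and 2 lower of 10 (0.14). Kinases and passengers had 1 higher and 2 lower of 7 (-0.08), cyclins and Cdk1 0 higher and 4 lower of 7 (-0.25), and the destruction group 1 higher and 2 lower of 6 (-0.25). Summed levels were compared for every role group. The cyclin group summed to 1306 and 1283 CPM against 1093 and 1055 CPM (ratio 0.830, labelled GFP+ over labelled RFP+), and the destruction group to 705 and 663 CPM against 526 and 526 CPM (0.769). Spindle genes summed to 1824 and 1775 CPM against 2029 and 2008 CPM (1.12), cytokinesis genes to 1642 and 1526 CPM against 1779 and 1829 CPM (1.14), and condensation genes to 2769.9 and 2683 CPM against 3083 and 3109.8 CPM (1.14). In none of these 5 groups did the populations overlap. Kinetochore genes did overlap, at 1515 and 1447 CPM against 1568 and 1512 CPM (1.04). Kinases and passengers, at 1735 and 1631 CPM against 1581 and 1581 CPM (0.939), did not. Nor did the membrane proteins, at 791 and 752 CPM against 749.8 and 741 CPM (0.966). Among single tested genes, 34.3% were apart on the higher side and 30.7% on the lower, so such separation was common. Sums over a library do not tell more cells with a transcript from more transcripts per cell.

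Cyclins, Cdk1 and its activators were the group with members called lower and none higher. Cdk1, the kinase that starts mitosis, stood at 291 and 294 CPM in libraries labelled RFP+ and at 241 and 208 CPM in those labelled GFP+. It fell by 0.39 ± 0.07 (SE; edgeR adjusted p = 1.91e-05) on the log2 scale. Ccnb1, cyclin B1 and its main partner, stood at 148 and 145 CPM against 115 and 109.8 CPM and fell by 0.39 ± 0.08 (edgeR adjusted p = 0.000371). Neither gene's populations overlapped. Cks1b, a small protein that docks on cyclin-dependent kinases, stood at 512 and 498 CPM against 408 and 413 CPM and fell by 0.31 ± 0.06 (edgeR adjusted p = 4.11e-05). Its relative Cks2 stood at 52.9 and 58.9 CPM against 69.3 and 60.4 CPM, a log2 difference of 0.20 that was not called (edgeR adjusted p = 0.208). The populations did not overlap for Cks2 either, so the pair of Cks genes lay on opposite sides, a contrast that has no test of its own here. Ccna2, cyclin A2, which acts from S phase into early mitosis, was at 155 and 153 CPM against 131 and 131 CPM and fell by 0.25 ± 0.08 (edgeR adjusted p = 0.017). That call was lost on leaving out any 1 of the 4 libraries (adjusted p 0.0572 to 0.088) and on thinning cells to equal depth (0.628). Ccnb2, cyclin B2, at 127 and 115 CPM against 109 and 107 CPM, had a log2 difference of -0.18 ± 0.09 that was not called (edgeR adjusted p = 0.118). Cdc25c, a phosphatase that activates Cdk1, was low at 19.1 to 25.9 CPM and its populations overlapped. Reads of Ccnb1, Ccnb2 and Cks1b could be shared with pseudogene or retrogene copies named after them, and Exosc9 lies opposite Ccna2 (log2 difference -0.10, not called).

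Of the genes of ubiquitin-driven destruction, the activator Cdc20 and the enzyme Ube2c fell, and the enzyme Ube2s rose. Cdc20 stood at 152 and 149 CPM in libraries labelled RFP+ and at 98.5 and 102 CPM in those labelled GFP+, 1.52-fold lower, a log2 difference of -0.60 ± 0.09 (SE; edgeR adjusted p = 5.49e-07). Ube2c, which adds the first ubiquitins on APC/C substrates, stood at 333 and 291 CPM against 216 and 207 CPM, 1.49-fold lower (-0.58 ± 0.07; edgeR adjusted p = 1.4e-08). Both genes had their libraries well apart, and both calls were kept under each of the 12 alternative settings run. Ube2s, which lengthens the ubiquitin chains that Ube2c starts, had far fewer counts. It had 31 and 32 counts (10.1 and 10.7 CPM) against 55 and 43 counts (21.2 and 16.9 CPM) and rose by 0.86 ± 0.24 (edgeR adjusted p = 0.00535). Leaving out the first library labelled GFP+ ended that call (0.69; adjusted p = 0.0876), as did DESeq2 (adjusted p = 0.172). Pttg1, securin, which keeps separase off until anaphase, stood at 113 and 112 CPM against 104 and 105 CPM, with a log2 difference of -0.12 ± 0.09 that was not called (edgeR adjusted p = 0.329). Fzr1, the activator that succeeds Cdc20 at mitotic exit, had -0.38 ± 0.19 (edgeR adjusted p = 0.121), and Cdca3, a trigger of mitotic entry, -0.04 (edgeR adjusted p = 0.801).

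The strand of the counting is not given in the sources used here, and 14 members have a coding gene on the opposite strand over their exons. Opposite Cdc20 lies Elovl1, at 56.2 and 66.9 CPM against 50.4 and 59.2 CPM, and not called (log2 difference -0.18). Tnnc2, opposite Ube2c, had 0 counts in all 4 libraries. Ube2s shares exon sequence with the opposite Rpl28, a ribosomal protein gene at 494 to 663 CPM, so its low counts are uncertain. Reads of the partner genes cannot be told apart from those of the members without strand.

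Among genes of the condensed chromosome, Mki67 had the largest log2 difference of all members with at least 50 CPM. Mki67, the proliferation marker that coats mitotic chromosomes, stood at 367 and 349 CPM in libraries labelled RFP+ and at 570.4 and 543 CPM in those labelled GFP+. It rose 1.54-fold, or 0.62 ± 0.06 on the log2 scale (SE; edgeR adjusted p = 1.94e-11), and the call was kept under all 12 alternatives. Top2a, the enzyme that untangles sister DNA, stood at 673 and 616 CPM against 739 and 746 CPM and rose by 0.19 ± 0.05 (edgeR adjusted p = 0.00693), a call lost without the second library labelled RFP+ (adjusted p = 0.114). With DESeq2's Wald test the call of Top2a was lost too (adjusted p = 0.134). Hmgb2, a chromatin protein, stood at 526 and 514 CPM against 581 and 592 CPM and rose by 0.16 ± 0.06 (edgeR adjusted p = 0.0244). Hmgb2 was not called on leaving out either library labelled RFP+ (adjusted p = 0.0555 and 0.0808) or the second labelled GFP+ (0.142). The condensin core did not move as one. Smc2 fell by 0.16 ± 0.06 (416 and 409 CPM against 361 and 385 CPM; edgeR adjusted p = 0.0412), a call lost without either library labelled RFP+ (0.124 and 0.0953) or the first labelled GFP+ (0.317). Its partner Smc4 had a log2 difference of 0.07 (654 and 673 CPM against 696 and 713 CPM) and the condensin subunits Ncapd2 and Ncapg had 0.28 and 0.01, and none of the 3 was called.

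**Figure D2:**
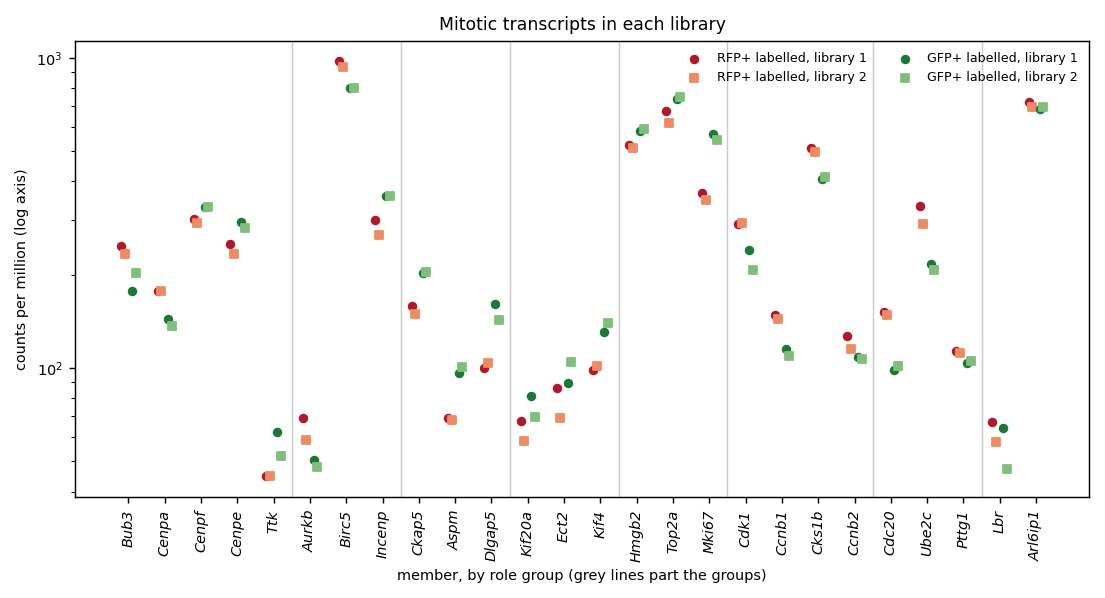
Level of the 26 members named by a set rule, in CPM on a log axis, one point per library (2 labelled RFP+, 2 labelled GFP+), by role group. Mki67 lies at 349 to 367 CPM in libraries labelled RFP+ and at 543 to 570.4 CPM in those labelled GFP+, and Cdc20 at 149 to 152 against 98.5 to 102 CPM.

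Spindle genes held 5 of the 16 members that rose. Dlgap5, which bundles microtubules near kinetochores, stood at 99.97 and 104 CPM in libraries labelled RFP+ and at 161 and 143 CPM in those labelled GFP+ and rose by 0.56 ± 0.09 (SE; edgeR adjusted p = 2.41e-06). Aspm, which gathers microtubule ends at spindle poles, stood at 68.8 and 67.9 CPM against 96.6 and 101 CPM and rose by 0.52 ± 0.10 (edgeR adjusted p = 0.000117). Ckap5, a microtubule polymerase, stood at 158 and 149.6 CPM against 202 and 204 CPM and rose by 0.39 ± 0.07 (edgeR adjusted p = 7.46e-05). None of these 3 genes had overlapping populations. Kif11, the motor that pushes the poles apart, rose by 0.33 ± 0.08 (edgeR adjusted p = 0.00234), a call lost with DESeq2's Wald test (adjusted p = 0.13). Ckap2 rose by 0.22 ± 0.08 (edgeR adjusted p = 0.0444), a call lost without the second library labelled RFP+ (0.318) or either labelled GFP+ (0.155 and 0.126). Gtse1, a microtubule-binding protein that also restrains p53, was the member called lower, at 25.6 and 24.1 CPM against 17.7 and 15.3 CPM (-0.60 ± 0.20; edgeR adjusted p = 0.0179). With 39 to 79 counts per library, Gtse1 lost its call without either library labelled RFP+ (0.108 and 0.0543) or the second labelled GFP+ (0.108). The 7 not called were Hmmr, Tpx2, Kif2c, Kif22, Nusap1, Ckap2l and Tacc3, with log2 differences from -0.09 to 0.28. Kif2c was called on leaving out the second library of either population (0.43 and 0.35; adjusted p = 0.016 and 0.045), and Tpx2 without the second labelled RFP+ (0.21; 0.0395).

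Genes of the central spindle and cytokinesis included no member called lower. Kif4, a motor of chromosome arms and the midzone, stood at 98.7 and 102 CPM in libraries labelled RFP+ and at 131 and 139.6 CPM in those labelled GFP+ and rose by 0.42 ± 0.09 (SE; edgeR adjusted p = 0.000284). Ect2, which switches on the small GTPase of the contractile ring, stood at 86.0 and 68.9 CPM against 89.7 and 105 CPM and rose by 0.31 ± 0.11 (edgeR adjusted p = 0.0251). The libraries of Ect2 were only just apart, and its call was lost without the second library of either population (adjusted p = 0.314 and 0.326). Anln, anillin, a scaffold of the ring, rose by 0.23 ± 0.06 (446 and 444 CPM against 508 and 548 CPM; edgeR adjusted p = 0.00187), a call lost without the second library labelled GFP+ (0.071). Kif20a, a motor of the midzone, stood at 67.5 and 58.2 CPM against 81.6 and 69.8 CPM, and its log2 difference of 0.25 ± 0.11 was not called (edgeR adjusted p = 0.0886; 0.0495 without the second library labelled GFP+). Prc1, Kif23, Kif20b and Racgap1, which build the midzone and its signalling hub, had log2 differences of 0.07 to 0.12 and were not called. Kif4 has a coding gene on the opposite strand, Pdzd11 (-0.17, not called), and a pseudogene.

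The kinetochore and checkpoint genes split. Cenpe, the motor that carries chromosomes to the spindle equator, stood at 251 and 234 CPM in libraries labelled RFP+ and at 296 and 283 CPM in those labelled GFP+ and rose by 0.25 ± 0.07 (SE; edgeR adjusted p = 0.00377). That call was lost with DESeq2's Wald test (adjusted p = 0.142) and in edgeR on cells thinned to equal depth (adjusted p = 0.0725). Cenpf, a large protein of the outer kinetochore, stood at 302 and 293 CPM against 332 and 332 CPM, and its log2 difference of 0.14 ± 0.06 was not called (edgeR adjusted p = 0.076; 0.0453 where only genes with at least 50 CPM were tested). Ttk, the kinase that starts the checkpoint, was at 44.8 and 44.8 CPM against 62.4 and 52.2 CPM and rose by 0.34 ± 0.13 (edgeR adjusted p = 0.0402). In each of these 3 genes the populations did not overlap. Bub1, a checkpoint kinase, rose by 0.22 ± 0.08 (edgeR adjusted p = 0.03). Ttk was not called without either library labelled RFP+ (0.126 and 0.095) or the first labelled GFP+ (0.372), and Bub1 not without the second labelled RFP+ (0.167) or the first labelled GFP+ (0.297). Bub3, which brings Bub proteins to kinetochores, stood at 247 and 234 CPM against 177 and 202 CPM and fell by 0.35 ± 0.07 (edgeR adjusted p = 0.000205). Cenpa, the histone that marks centromeres, stood at 178 and 177 CPM against 144 and 137 CPM and fell by 0.35 ± 0.08 (edgeR adjusted p = 0.000484; 0.0533 with DESeq2). Both were apart by label. Bub1b, Ndc80, Nuf2 and Sgol1 had log2 differences of 0.01 to 0.14 and were not called.

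The chromosomal passenger complex, which corrects faulty attachments, showed its subunits on both sides. Incenp, its scaffold, stood at 300.2 and 269.7 CPM in libraries labelled RFP+ and at 359 and 358 CPM in those labelled GFP+ and rose by 0.32 ± 0.06 (SE; edgeR adjusted p = 0.000152). Birc5, survivin, which targets the complex to centromeres, stood at 975 and 938 CPM against 798 and 798 CPM and fell by 0.28 ± 0.05 (edgeR adjusted p = 6.03e-05). Both calls were kept under all 12 alternatives. Aurkb, the kinase of the complex, was at 69.1 and 58.6 CPM against 50.4 and 47.8 CPM and fell by 0.39 ± 0.12 (edgeR adjusted p = 0.0142). Aurkb was not called without the first library labelled RFP+ (0.213) or the second labelled GFP+ (0.0685), nor with DESeq2 (0.255). Cdca8, borealin, the other subunit, had a log2 difference of -0.08 (edgeR adjusted p = 0.403). Of the kinases outside the complex, Plk1 stood at 69.5 and 60.2 CPM against 77.0 and 76.1 CPM (0.22 ± 0.11; edgeR adjusted p = 0.124), Aurka had -0.13 and Nek2 -0.01, and none was called. The 2 membrane proteins of the list were not called either: Arl6ip1, of the endoplasmic reticulum, was at 724 and 694 CPM against 685 and 693 CPM (-0.05), and Lbr, the lamin B receptor, at 66.9 and 57.9 CPM against 64.3 and 47.4 CPM (-0.17).

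The rest of the mitotic pathway was read from 5 further lists, of which 126 of 130 symbols were in the table and 116 genes were tested. There 21 rose (18.1%, against 15.7% of all tested genes) and 7 fell (6.03%, against 14.9%), with a median log2 fold of 0.11. The higher share is near that of all genes, and the counts of the single lists are small and were not tested against it. With offsets for length and GC content fewer of these genes were called higher, as given at the end. Of the APC/C subunits and the inhibitor Fbxo5, 2 of 15 rose and 2 fell. Anapc4 rose by 0.59 (67.5 and 58.6 CPM against 96.6 and 95.3 CPM; edgeR adjusted p = 3.05e-05), while the small subunit Anapc11, which holds the catalytic RING domain, fell by 0.41 (419 and 454 CPM against 319 and 345 CPM; edgeR adjusted p = 2.25e-06). Anapc16 fell by 0.42 (edgeR adjusted p = 0.00256). The complex that Cdc20 activates thus had called subunits in both directions. Of all tested genes 15.7% were called higher and 14.9% lower, and of those with at least 50 CPM 24.0% and 23.4%. Beside these shares, condensin and cohesin genes had 7 higher and 0 lower of 16 tested. The leading 3 were Pds5b (0.63; edgeR adjusted p = 1.01e-07), a cohesin regulator, Ncapd3 (0.52; 0.000236), a condensin II subunit, and Nipbl (0.48; 1.23e-06), which loads cohesin. Other spindle and cytokinesis genes had 9 higher and 2 lower of 34 tested, among them Numa1 (0.52; edgeR adjusted p = 0.000783) and the importin Kpna2 (0.50; 0.00189), whose call was lost without the first library labelled GFP+ (adjusted p = 0.119). The largest difference there, in Ckap4 (1.49; edgeR adjusted p = 7.68e-11), is in a gene whose name recalls microtubules but whose protein sits in the endoplasmic reticulum. Other checkpoint and kinetochore genes had 1 higher (Spc25, 0.30; edgeR adjusted p = 0.0116) and 2 lower of 32 tested, Pmf1 among them (-0.43; 0.0055). Spc25 was not called without the first library labelled GFP+ (adjusted p = 0.124), nor Pmf1 without the first library of either population (adjusted p of up to 0.0796). Regulators of mitotic entry had 2 higher and 1 lower of 19 tested, with Arpp19, an inhibitor of the phosphatase PP2A, at -0.25 (edgeR adjusted p = 0.00101) and Ppp2r2a, a PP2A subunit, at 0.19 (0.0243). The call of Ppp2r2a was lost without the second library labelled RFP+ or either labelled GFP+ (adjusted p of up to 0.126).

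Long members tended to be higher and short members lower in the libraries labelled GFP+. Length here is that of the longest protein-coding transcript in GENCODE M21. Across the 60 members Spearman's rho between length and log2 fold was 0.42. Across the 7543 tested genes with a length it was 0.36, so the trend is one of all genes and not of mitotic genes alone; the genes share the same 4 libraries and are not independent. Of the 20 longest members (3674 to 11130 bases) 10 rose and 2 fell, and of the 20 shortest (692 to 2593 bases) 2 rose and 6 fell. All tested genes in the same length ranges showed 23.9% higher and 6.09% lower among the long, and 7.45% higher and 23.9% lower among the short. Those genes were not matched to the members for counts, and well-counted genes pass the test more often. The median log2 fold of the long members was 0.24, against 0.14 for all genes of that range, and that of the short members -0.07, against -0.12. Between the 2 libraries of 1 population the rho of the members was -0.07 (labelled RFP+) and 0.11 (labelled GFP+).

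**Figure D3:**
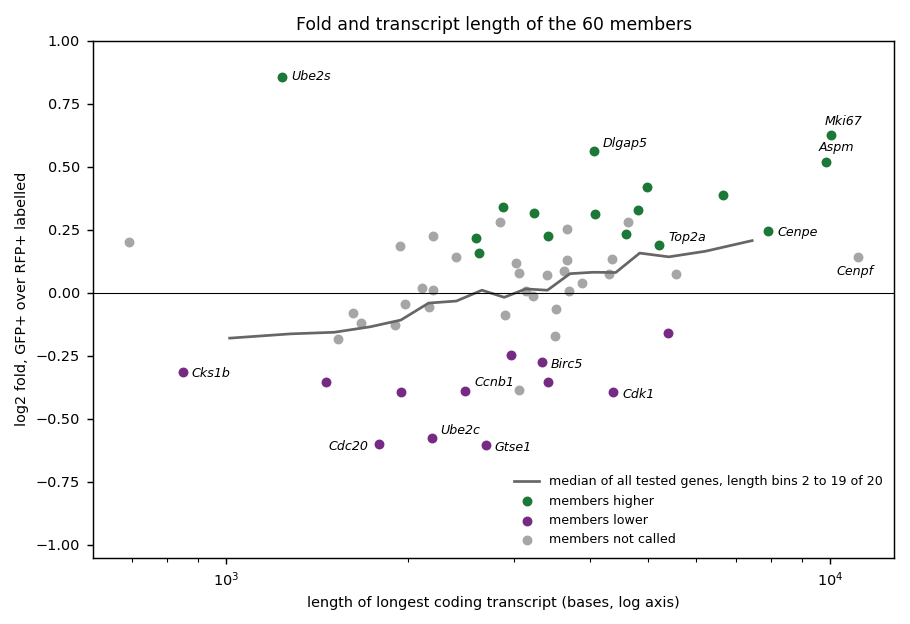
Log2 fold (labelled GFP+ over labelled RFP+) of each member against the length of its longest coding transcript in bases on a log axis; points are members, coloured by call, and the line joins the median log2 fold of all tested genes in length bins 2 to 19 of 20. The line climbs with length, Cdc20, Ube2c, Ccnb1 and Cdk1 lie below it, and Dlgap5 lies above it; Mki67 and Aspm are longer than the last bin drawn.

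Set against genes of the same length, or of the same length and GC content, some members kept their difference and others lost it. The rho of the members was 0.08 once the median fold of the gene's length bin was taken off. In an edgeR fit with offsets for length and GC content, 8 members were higher, where 11.5% of all tested genes were. Of the 16 called higher without offsets, 6 kept the call (Incenp, Aspm, Dlgap5, Kif4, Mki67 and Ube2s) and 10 lost it, and Plk1 and Cks2 were gained. In that fit 11 members were lower, where 12.9% of all genes were, with Aurkb the 1 call lost (-0.30; edgeR adjusted p = 0.0648). Cenpe, 7910 bases long, went from 0.25 to 0.04 (edgeR adjusted p = 0.722), Top2a, of 5221 bases, from 0.19 to 0.03 (0.787), and Cenpf, of 11130 bases, from 0.14 to -0.07 (0.495). Ckap5, of 6665 bases, went from 0.39 to 0.19 (edgeR adjusted p = 0.0646). Also lost were Anln (0.09; edgeR adjusted p = 0.28), Kif11 (0.17; 0.133), Bub1 (0.11; 0.335), Ttk (0.26; 0.13), Ckap2 (0.15; 0.192), Ect2 (0.17; 0.225) and Hmgb2 (0.07; 0.404). Mki67, of 10061 bases, kept 0.41 (edgeR adjusted p = 3.01e-09) and Aspm, of 9867 bases, 0.31 (0.0225; 0.26 and 0.0564 with offsets for length alone). On the lower side Cdc20, of 1793 bases, kept -0.44 (edgeR adjusted p = 2.13e-05) and Ube2c, of 2191 bases, -0.45 (7.98e-09). Cdk1, with 4375 bases, lay against the trend and went from -0.39 to -0.51 (edgeR adjusted p = 4.82e-11), as did Smc2 (5404 bases; -0.16 to -0.32; 7.68e-06). The 2 calls gained stood at 0.36 (Plk1; edgeR adjusted p = 0.0119) and 0.34 (Cks2; 0.026). Some of these changes came only with GC content in the offsets. With offsets for length alone, Ckap5 (0.20), Ttk (0.33), Ckap2 (0.22) and Hmgb2 (0.16) kept their calls (edgeR adjusted p 0.0285 to 0.0498). Cks2 was called there too (0.36, edgeR adjusted p = 0.0196), and Plk1 was not (0.26, edgeR adjusted p = 0.0775). Of the 2 long and 2 short members named for this contrast, Cenpe thus lost its call under both kinds of offset, Aspm under 1 of them, and Cdc20 and Ube2c under neither.

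Under every alternative setting run for them, 4 calls on the higher side and 7 on the lower side were kept. The former were Incenp, Dlgap5, Kif4 and Mki67, and the latter Bub3, Birc5, Ccnb1, Cdk1, Cks1b, Cdc20 and Ube2c. The lower set spans the cyclin group (Cdk1, Ccnb1 and Cks1b), the destruction group (Cdc20 and Ube2c), the checkpoint (Bub3) and the passenger complex (Birc5). The share of all tested genes whose calls were kept under every setting is not given here. These counts therefore have no background.

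In single cells the same genes differed in how many cells held a count. After each cell was thinned to 1000 counts (5620 cells; 1770 shallower cells left out), a Mki67 count was found in 27.9% (95% exact binomial interval 25.7 to 30.2) and 26.3% (24.0 to 28.7) of cells labelled RFP+ and in 40.3% (37.7 to 42.9) and 36.3% (33.6 to 39.0) of cells labelled GFP+. Without thinning the shares were 35.2% and 33.7% against 51.2% and 44.9%. For Cdc20 the thinned shares were 13.9% and 13.9% against 8.81% and 9.73%, and for Ube2c 24.4% and 21.5% against 18.4% and 16.8%. Unthinned, Cdc20 was found in 18.6% and 18.5% against 13.4% and 12.6% of cells, and Ube2c in 32.2% and 28.6% against 25.3% and 22.1%. For all 3 genes the populations were apart in the direction of their library sums, which rest on the same counts. At such low counts per cell a share largely follows the mean level. The shares therefore add no separate evidence, and they do not tell more cells with a transcript from more transcripts per cell. The intervals cover counting error only. No cell type without mitotic transcripts was identified among these cells, so what free RNA adds to such shares was not tested.

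Mitotic transcripts were spread over almost all cells and were concentrated in some. Thinned cells held a median of 11 member counts in each library, a 90th percentile of 20 to 21 and a maximum of 37 to 50, and 97.8% to 98.4% of cells held 3 or more. The variance of the summed member counts over cells was 2.98 to 3.33 times the mean in the 4 libraries. By role it was 1.54 to 1.75 for spindle genes and 1.35 to 1.55 for kinetochore genes, and 1.09 to 1.21 for cyclins and 0.996 to 1.10 for APC/C subunits, where independent counts of equal cells would give 1. The spread grows with the mean count of a list, so lists of unequal level are not ranked. Over the 66 pairs of 12 fixed members, the number of cells with both genes was divided by that for independent genes. This ratio averaged from 0.909 (Cdk1 with Pttg1) to 1.51 (Aspm with Cdc20), and it was above 1 in every library for 37 pairs. Pairs of genes outside the list were not examined, so this count has no background either.

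The tenth of cells with the most counts from the other members, a split made after seeing the data, was then set against the other cells of its library. Of the 54 members with at least 50 CPM, 50 were higher in those cells in all 4 libraries. The same ratio was not computed for genes outside the list, so this count has no background. Cenpf was 2.87 to 3.87 times as high there, Nusap1, a microtubule-bundling protein, 2.70 to 3.66 times, Prc1 2.64 to 3.43 times, Cenpe 2.67 to 3.20 times, Ube2c 2.04 to 2.75 times and Ccnb1 1.83 to 3.10 times. The lowest mean ratios were those of Lbr (0.680 to 1.40 times, on 33 counts in all), Cks1b (0.937 to 1.17 times), Smc2 (1.13 to 1.48 times) and Ccnb2 (0.884 to 1.74 times). The populations were then set side by side within the rich cells and within the others, which make up most of each library. Cdc20 stood at 227 and 246 CPM in such cells labelled RFP+ and at 177 and 154 CPM in such cells labelled GFP+ (log2 difference -0.51), and the other cells had -0.61. The log2 difference of Mki67 was 0.50 in the rich cells and 0.66 in the others, that of Aspm 0.59 and 0.49, that of Ube2c -0.32 and -0.47, and that of Ccnb1 -0.24 and -0.42. Of the 11 members called lower with at least 50 CPM, 10 were also lower in the rich cells, all but Smc2, and 11 in the others. These cells helped to give the calls, so the counts are no separate evidence. Smc2 had 0.02 in the rich cells and -0.21 in the others, and Ccna2 -0.44 and -0.01. These values rest on 123 to 154 rich cells per library and have no test.

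**Figure D4:**
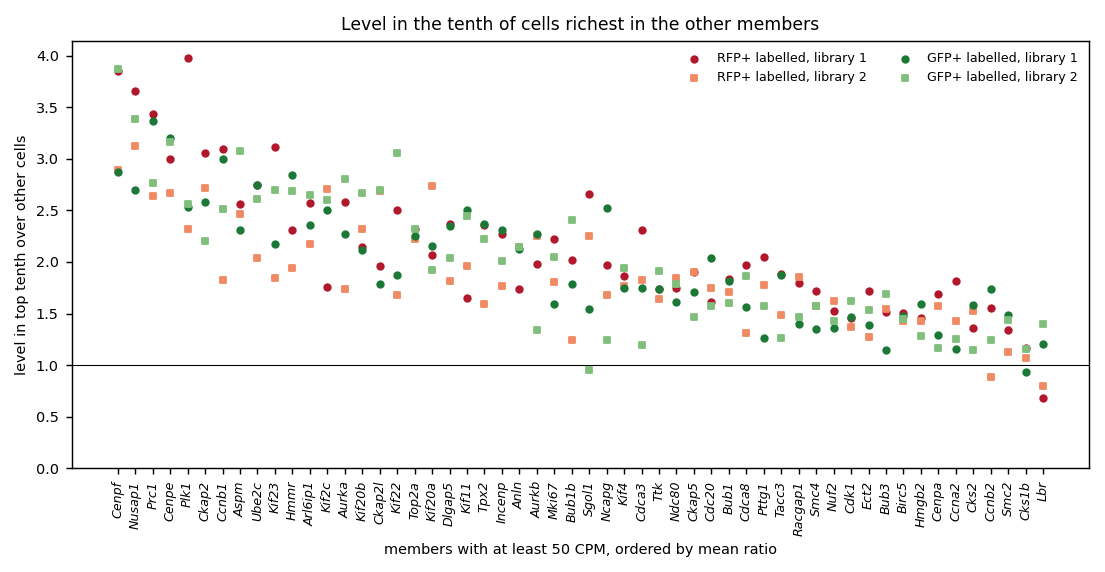
Ratio of each member's level in the tenth of thinned cells richest in the other members to its level in the other cells, by library, for the 54 members with at least 50 CPM in order of mean ratio; the line marks a ratio of 1. Cenpf, Nusap1, Prc1 and Cenpe lie above 2.5 in every library, and Cks1b and Lbr lie around 1.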

How the data were processed

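Polyadenylated RNA of single sorted Tri-PyMT cells was measured by Drop-seq, per the labels' protocols, with GRCm38 as the genome build, per the submitters' processing notes. The authors deposited raw counts per gene and cell in 1 table; the aligner, the strand and whether molecular identifiers were collapsed were not given in the sources used here. Lanes of a library are pooled in the table, so the library is the replicate (2 per population; chi-square per degree of freedom between libraries 1.36 and 1.41 over genes). Cells with 500 counts or more, less than 20% of them mitochondrially encoded, were summed per library. Genes with at least 10 CPM in either population and at least 20 counts were tested with edgeR 4.0.16 (quasi-likelihood F test, TMM, R 4.3.3, Benjamini-Hochberg threshold 0.05). The SE was computed as absolute log2 fold divided by the root of F, with dispersion moderated across genes. The code was tested on simulated data, where 90.9% of 2-fold and 64.6% of 1.5-fold changes were recovered. Of the 167 calls there, 13 were of unchanged genes. A member that was not called is therefore not shown to be unchanged.

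DESeq2 1.42.0, other filters, size factors, thinned cells, length and GC offsets (loess, span 0.5) and leaving out each library were alternatives. Lengths are from GENCODE M21 (99.3% of tested genes), and promoters from RefSeq. The members, role groups, pathway lists and named genes were chosen with earlier results of these data known. Values by library are given for 12 fixed members and the 3 members of each role with the largest difference among those with at least 50 CPM. Of other members, values by library are shown where a call or a contrast is described, and those were chosen after their values were seen. Doublets were not removed. Protein sequences were not used here.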

Additional observations from a re-analysis of the deposited data

How the results depend on the processing

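Of the 60 log2 folds of the members, none changed sign with a call under any setting. With cells thinned to 1000 counts, 749 genes of all tested were higher and 732 lower, 10 members were higher, and 2 of the other pathway genes were lower. With DESeq2's Wald test 364 genes were higher and 370 lower, or 4.79% and 4.87% of those tested. There 6 members were higher and 7 lower, and 8 and 2 of the other pathway genes. Offsets for length and GC content left 8 members and 13 other pathway genes higher, where 11.5% of all tested genes were. Offsets for length alone left 10 members higher, and testing without a filter on low counts 11 other pathway genes higher. Shares of all tested genes are not given for the other settings. The counts under them are therefore not read as a result about the members. The cause of these changes was not tested. Thinning uses fewer cells and fewer counts per cell, and the unfiltered test adjusts over more genes. In the cells with at least 1000 counts, 4 member calls were lost without thinning and 9 with it. Leaving out 1 library gave 12 to 14 members higher and 8 to 10 lower, 13 to 18 other pathway genes higher and 3 to 7 lower, and 872 to 929 genes higher and 797 to 920 lower in all. With 1 library left in a population, that library is assumed to vary like the other pair. The rho of length and fold was 0.28 with the median coding transcript and 0.47 with merged exons. No paired analysis was possible because the column names of the populations share only 1 library number. The split by 3 or more member counts held nearly all cells, so the tenth richest in members was used instead. Depth limits members with few counts, such as Ube2s, Gtse1 and Ncapd2. The planned search of proteins for degradation motifs was not run.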
